A study of Homo sapiens with 2 samples.

Results

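The cytosolic ribosomal protein genes of liver progenitors made from human embryonic stem cells are described here. They were chosen by symbol: every protein-coding gene of the expression table whose symbol begins with RPL or RPS and a digit, with RPLP, or is RPSA, leaving out the S6 kinases (RPS6K). The rule found 90 genes among 57158 measured gene identifiers and 19344 protein-coding symbols. One of them is Y-linked and is counted as a member but not described further, and the remaining 89 fall into 77 canonical ribosomal protein genes, 8 paralogs, 3 readthrough genes and RPS19BP1. RPS19BP1 is caught by its name alone, since it encodes a binding protein of RPS19 and no part of the ribosome.

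The ribosome translates messenger RNA into protein. Its small subunit reads the message, its large subunit joins the amino acids, and each carries a set of proteins around a core of ribosomal RNA. In most cells each ribosomal protein is made from a single intron-bearing gene, and the mRNAs of these genes usually begin with a run of pyrimidines, the terminal oligopyrimidine (TOP) tract, through which growth signals set their translation together. Their mRNAs have been copied back into the human genome many times, and the resulting processed pseudogenes have no introns and differ from the parent mRNA by few bases when young.

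The series held 1 group. CyT49 human embryonic stem cells reached definitive endoderm, from which the liver arises, at day 2 and were then grown in suspension for a further 6 days in RPMI medium with 0.2% FBS, 50 ng/ml BMP4 and 10 ng/ml FGF2. At day 8 poly(A) RNA was taken from 2 µg of total RNA for strand-specific sequencing, and 2 libraries were deposited as replicates. No untreated, earlier or other cell type was analysed here, so levels are compared between genes of the same cells, and CyT49 is a single line. Values are RPKM, the reads of a gene divided by its length and by the depth of the library, and every value under 0.5 was listed as 0.1, here called the floor. The values corresponded to 25182071 reads in library 1 and 25263820 reads in library 2. Over 993 single-exon genes the libraries differed by 1.1 times the variance that counting reads alone gives, so they were treated as 1 sample, both values are printed, and no test was possible. All 8 listed liver progenitor markers were detected, at 14.6 RPKM for PROX1 up to 2188 RPKM for APOA1. All 3 pluripotency markers, all 4 blood markers, both neural markers and the endothelial marker with a value were listed at the floor, while COL1A1 of the mesenchymal pair stood at 8.29 RPKM in library 1 and 8.30 RPKM in library 2.

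The TOP tract lies in the first transcribed bases of an mRNA, and by annotated start positions it was found in most canonical genes and in few paralogs. The sequences below run from 15 bases before to 15 bases after the start of transcription in RefSeq (GRCh38.p14), and capitals mark an unbroken run of C and T that begins with C at the start itself and is at least 5 bases long. They cover 3 of the 10 highest canonical genes, RPL35, 3 of the lowest (RPL22, RPL36A and RPS7), and 5 paralogs.

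RPS12, chr6:132814554-132814583, + strand: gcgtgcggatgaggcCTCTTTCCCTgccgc

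RPL41, chr12:56116618-56116647, + strand: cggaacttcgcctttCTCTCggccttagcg

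RPS6, chr9:19380222-19380251, - strand: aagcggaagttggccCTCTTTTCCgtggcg

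RPL35, chr9:124861943-124861972, - strand: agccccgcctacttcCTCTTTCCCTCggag

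RPL22, chr1:6199581-6199610, - strand: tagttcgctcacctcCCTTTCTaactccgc

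RPL36A, chrX:101390996-101391025, + strand: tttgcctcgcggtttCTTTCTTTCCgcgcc

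RPS7, chr2:3575245-3575274, + strand: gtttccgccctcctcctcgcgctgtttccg

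RPL36AL, chr14:49620612-49620641, - strand: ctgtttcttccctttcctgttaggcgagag

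RPS27L, chr15:63157463-63157492, - strand: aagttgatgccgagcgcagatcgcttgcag

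RPL26L1, chr5:172958714-172958743, + strand: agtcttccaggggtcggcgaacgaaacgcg

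RPL22L1, chr3:170870181-170870210, - strand: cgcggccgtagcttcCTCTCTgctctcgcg

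RPL7L1, chr6:42879601-42879630, + strand: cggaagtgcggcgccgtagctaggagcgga

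A promoter window, from 250 bases before to 50 bases after the start, was found for 62 of the 77 canonical genes and for 15288 protein-coding genes. A gene with several windows was counted for a motif if any of them held it, and a window with a TOP start was preferred for printing. A TOP start, meaning C at the start followed by 4 bases that are each C or T, was present in 46 of the 62 canonical genes (74.2%), against 967 of the 15288 protein-coding genes (6.3%). The 16 without one were RPL3, RPL4, RPL6, RPL9, RPL10A, RPL15, RPL17, RPL19, RPL27, RPL32, RPS4X, RPS7, RPS15, RPS26, RPS28 and RPS29. The annotated start of RPS7 lies inside an unbroken pyrimidine run that begins before it. That run ends before the 4 bases after the start are complete, so no TOP start was counted. The result therefore depends on the single start position that RefSeq gives. Of the 6 paralogs with a window, RPL22L1 alone had a TOP start. The translation factor mRNAs listed as TOP mRNAs had it in 10 of 11 (90.9%), the ribosome assembly genes in 4 of 27 (14.8%), and the mitochondrial ribosomal protein genes in 6 of 69 (8.7%).

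Other short motifs were counted in the same windows. CTTTCC, which overlaps the TOP tract, lay within 10 bases before to 20 bases after the start on the gene strand in 30.6% of canonical members, against 2.2% of protein-coding genes. CGGAAG, the core of ETS factor sites such as that of GABPA, was found on either strand in 40 of 62 canonical members (64.5%), against 30.0% of protein-coding genes. Related lists also held it often, with 55.1% of mitochondrial ribosomal protein genes, 54.5% of the TOP mRNA list and 48.1% of the ribosome assembly genes. AAGATGGC, the letters of the YY1 motif, was found on either strand in 9.7% of canonical members, against 4.8% of protein-coding genes, 30.4% of mitochondrial ribosomal protein genes and 36.4% of the TOP mRNA list. The GC box GGGCGG, on either strand, was in 58.1% of canonical members, against 65.1% of protein-coding genes, and TATAAA, the letters of the TATA box, in 8.1%, against 12.4%. Levels were split by the TOP start and by CGGAAG alone, and in both splits the groups overlapped. The median was 192 RPKM for the 46 with a TOP start and 176 RPKM for the 16 without one, with ranges of 45.5 to 850 RPKM and 58.3 to 433 RPKM. It was 204 RPKM for the 40 with CGGAAG and 175 RPKM for the 22 without it, with ranges of 45.5 to 786 RPKM and 58.3 to 850 RPKM.

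All 77 canonical genes were detected, meaning 1 RPKM or more in both libraries, against 59.8% of protein-coding genes. At least 100 RPKM in both libraries was reached by 69 of the 77, against 1.3% of protein-coding genes. Their median was 188 RPKM in library 1 and 189.9 RPKM in library 2, while the median of all protein-coding genes was 2.42 RPKM and that of the detected ones 6.60 RPKM. They filled 29 of the 100 highest protein-coding places and 61 of the 200 highest. Together they held 8.0% of all protein-coding RPKM in library 1 and 8.01% in library 2. Because the RNA came from whole cultures, the number of expressing cells and the RNA per cell cannot be told apart.

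Proteins of the ribosome are present in equal numbers apart from the stalk proteins. The RPKM of the canonical genes covered an 18.7-fold range. RPKM measures RNA and depends on the gene length used and on how shared reads were assigned, so this range is not one of protein. The highest was RPS12, a protein of the small subunit (chr6:133135708-133138703, GRCh37, + strand), at 848 RPKM in library 1 and 852 RPKM in library 2. The lowest was RPL36A, a large-subunit protein (chrX:100645812-100651143, GRCh37, + strand), at 45.5 RPKM in library 1 and 45.4 RPKM in library 2. The middle 50% of the canonical genes lay between 131 and 358 RPKM, a narrower span of 2.72-fold.

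Among the highest genes after RPS12 was RPL41, which encodes the smallest ribosomal protein, at 784 RPKM in library 1 and 787 RPKM in library 2. RPS2, at the mRNA entry channel, had 755 RPKM in library 1 and 754 RPKM in library 2. RPS18, at the head of the small subunit, had 574 RPKM in library 1 and 563 RPKM in library 2. RPL8, whose protein lies near the peptidyl transferase centre, had 525 and 528 RPKM, RPL7A had 488 and 489 RPKM, and RPL13A had 484 and 478 RPKM. Also among the 10 highest were RPLP0, the base of the stalk, at 464 RPKM in library 1 and 466 RPKM in library 2, and RPS6, the substrate of the S6 kinases, at 444 and 442 RPKM.

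At the other end, RPS7 stood above RPL36A, at 58.7 RPKM in library 1 and 57.9 RPKM in library 2. RPL22, a protein of the large subunit outside its catalytic core, had 59.8 RPKM in library 1 and 61.5 RPKM in library 2. RPL27A had 73.3 and 73.5 RPKM, RPS15A 85.1 and 85.3 RPKM, RPL9 90.2 and 92.3 RPKM, and RPL24 91.6 and 93.7 RPKM. RPL38 and RPL34 lay close to 100 RPKM, with 98.1 RPKM in library 1 and 98.3 RPKM in library 2 for RPL38, and 104 RPKM in library 1 and 100.4 RPKM in library 2 for RPL34. RPL28 was next, at 109 RPKM in library 1 and 108 RPKM in library 2. The 10 lowest genes thus came from both subunits, 2 from the small and 8 from the large.

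**Figure D1:**
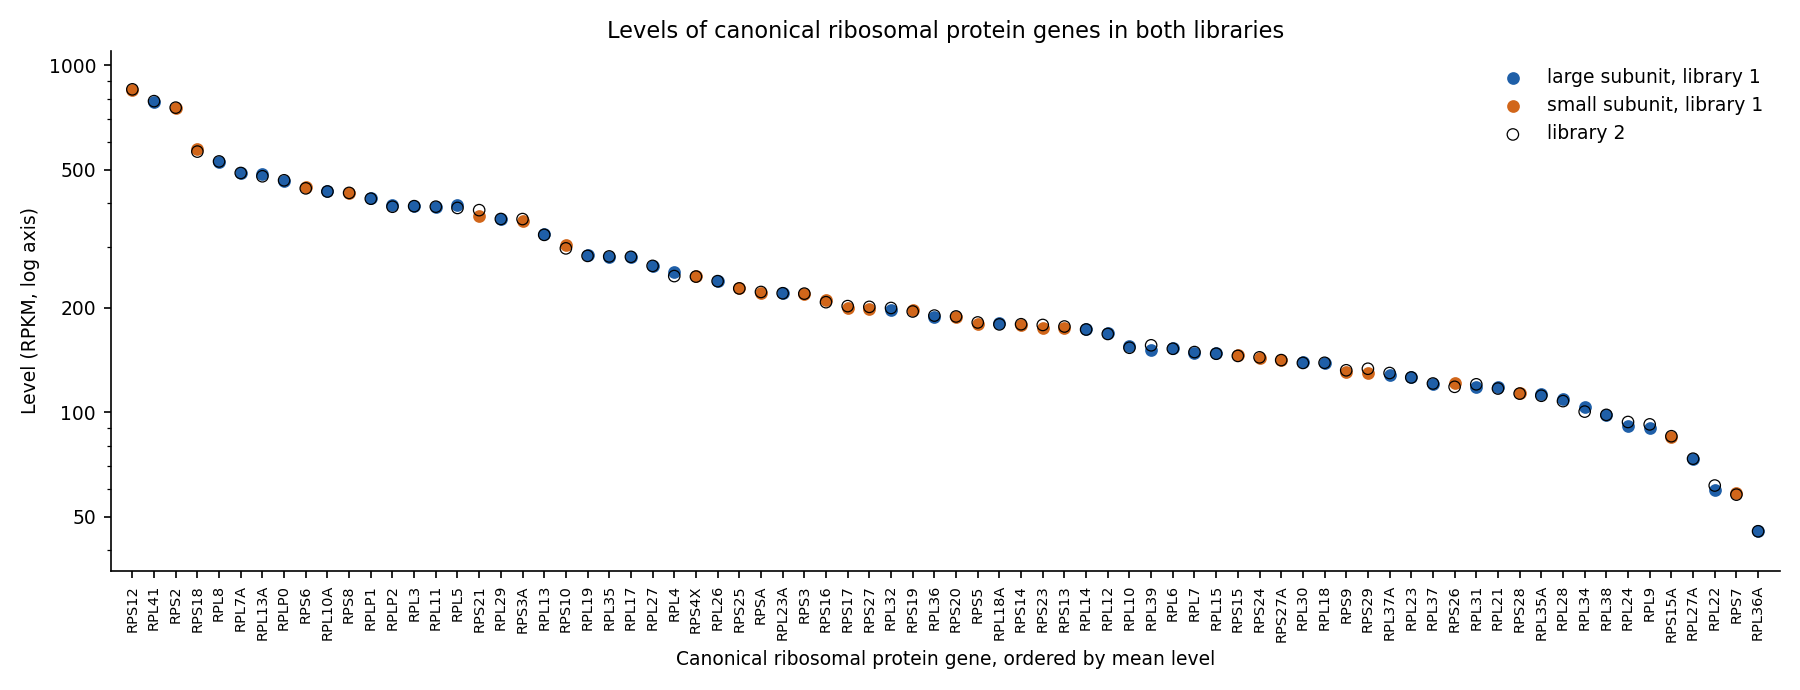
RPKM (log axis) of 76 of the 77 canonical genes in library 1 (filled points, large subunit blue, small subunit orange) and library 2 (open circles), ordered by mean level. The order runs from RPS12 at 850 RPKM to RPL36A at 45.5 RPKM, and the points of the libraries nearly coincide for every gene drawn.

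The libraries gave nearly the same value for every canonical gene. The ratio of library 1 to library 2 ran from 0.962 to 1.031, 50 genes lay within 1% and 74 within 3%, and 38 of the 77 were higher in library 1. None differed by 1.1-fold, whereas 12.3% of the detected protein-coding genes did. That share falls with level: of 798 protein-coding genes at 40 RPKM or more, where all canonical genes lie, 1 differed so much. In the order of the 77 genes, 40 of the 76 neighbouring pairs were less than 3% apart, so many neighbours could not be placed in order beyond the difference between libraries.

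The large subunit had 46 canonical genes with a median of 177 RPKM and the small subunit 31 with a median of 199.9 RPKM, a ratio of 0.883. The ranges overlapped almost entirely, from 45.5 to 786 RPKM in the large subunit and from 58.3 to 850 RPKM in the small subunit. The direction turned when reads on named pseudogenes were added to their parent genes, with a ratio of 1.41, so no order of the subunits can be given.

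Members were next grouped by their place in the ribosome. In the stalk, which recruits translation factors to the large subunit, RPLP0 had a mean of 465 RPKM, RPLP1 413 RPKM, RPLP2 393 RPKM and RPL12, which anchors the stalk, 169 RPKM. RPLP0, RPLP1 and RPLP2 lay above the canonical median and RPL12 below it. The order of RPLP0 and RPLP1 turned when reads were divided by coding length, which put RPLP1 at place 3 and RPLP0 at place 16 of the 77. RPL5 and RPL11, which carry 5S ribosomal RNA into the large subunit and bind MDM2 when ribosome assembly fails, had the same mean of 391 RPKM. RPL5 had 394 RPKM in library 1 and 388 RPKM in library 2, and RPL11 had 391 RPKM in both.

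The 7 proteins around the exit of the peptide tunnel ran from 119 RPKM for RPL31 to 283 RPKM for RPL19, with a median of 239 RPKM. At the mRNA entry RPS2 stood at 754 RPKM, RPS3 at 219 RPKM and FAU at 104 RPKM. Of the proteins that contact tRNA or the decoding site, RPS18 stood at 569 RPKM, RPS16 at 209 RPKM, RPS23 at 176 RPKM and RPS15 at 146 RPKM. FAU and RACK1 encode ribosomal proteins that the symbol rule does not catch. Ribosomal proteins made as fusions to ubiquitin or a ubiquitin-like protein were below the canonical median, with RPS27A at 141 RPKM and FAU at 104 RPKM. RACK1, a scaffold on the small subunit, stood at 240.2 RPKM.

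The paralogs, retrocopied or duplicated genes related to a canonical gene, were far lower. Their proteins were not compared with those of their partners, so how close each pair is was not tested. Of 8, 6 were detected, none reached 100 RPKM, and their median was 6.05 RPKM. RPL3L, which replaces RPL3 in skeletal muscle and heart, was listed at 0.1 in each library, while RPL3 had 394 RPKM in library 1 and 392 RPKM in library 2. RPL10L, a retrogene that stands in for the X-linked RPL10 in the testis, was likewise listed at 0.1 in each library, while RPL10 had 156 RPKM in library 1 and 153 RPKM in library 2. No fold is given for these pairs, since a floor value says only that a gene lay under 0.5 RPKM.

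RPL36AL, a gene for a variant of RPL36A, had the highest RPKM of the paralogs. RPL36AL (chr14:50085248-50087344, GRCh37, - strand) had 83.5 RPKM in library 1 and 78.6 RPKM in library 2, against 45.5 and 45.4 RPKM for RPL36A, or 178% of its partner by mean. The annotated exons of RPL36AL span 676 bases and those of RPL36A 3965 bases, and RPKM divides by gene length, so the order of this pair depends on the lengths that the authors used. By RPKM times exon length, an estimate of reads, RPL36AL had 30.4% of RPL36A, which turns the order. On that measure the share also moved for other pairs, to 29.6% for RPL7L1 of RPL7 and 26.5% for RPS27L of RPS27, and to 4.29% for RPL22L1, 2.39% for RPL26L1 and 1.70% for RPL39L of their partners, so that none of the 6 detected paralogs lay above its partner. The shares that follow are of RPKM. RPL7L1 came next, with 15.3 RPKM in library 1 and 15.1 RPKM in library 2, 10.2% of the mean of RPL7, which had 148 and 149 RPKM. RPL26L1 had 12.1 RPKM in library 1 and 12.2 RPKM in library 2, 5.09% of the mean of RPL26, which had 238 and 239 RPKM.

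RPS27L, a target of p53 in human cells, had 6.21 RPKM in library 1 and 6.15 RPKM in library 2, 3.09% of the mean of RPS27, which had 199 and 201 RPKM. RPL22L1, whose mouse counterpart rises when RPL22 is lost, had 6.12 RPKM in library 1 and 5.72 RPKM in library 2, 9.76% of the mean of RPL22, which had 59.8 and 61.5 RPKM. RPL39L, a paralog known from the testis and some tumours, had 5.86 RPKM in library 1 and 4.90 RPKM in library 2, 3.50% of the mean of RPL39, which had 152 and 156 RPKM. RPL39L was the only member that differed by at least 1.1-fold between the libraries, at a ratio of 1.20. About 152 and 128 reads stand behind these values by annotated exon length, and 9.50% of the 2368 protein-coding genes of mean 4 to 7 RPKM differed as much.

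**Figure D2:**
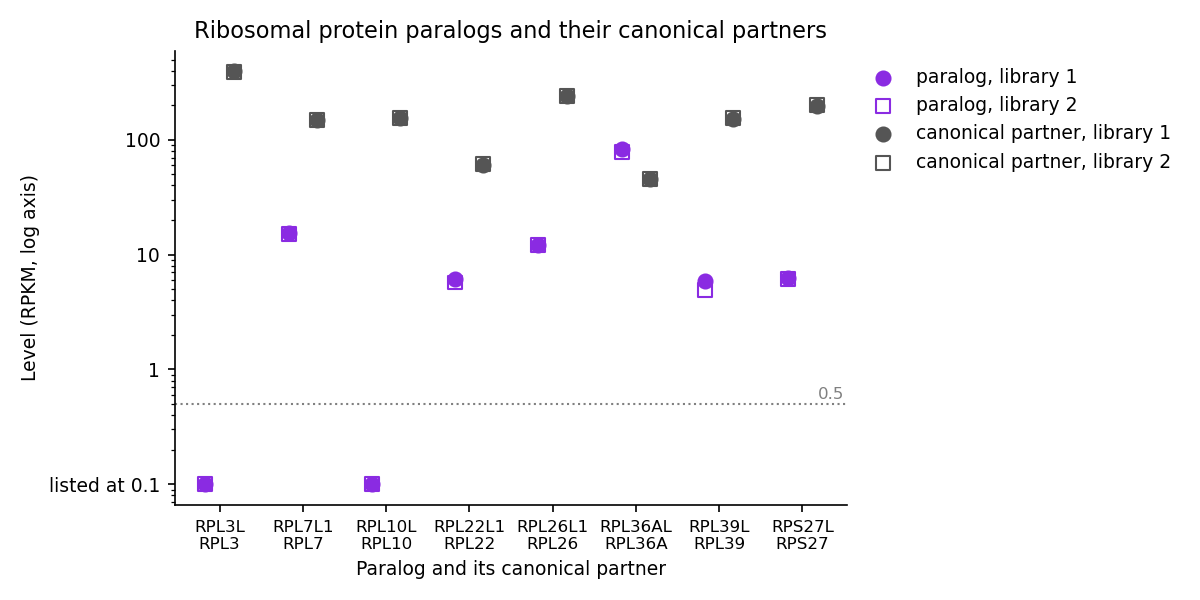
RPKM (log axis) of the 8 paralogs (purple, left of each pair) and their canonical partners (grey, right) in library 1 (filled circles) and library 2 (open squares); the dotted line marks 0.5 RPKM, under which values are listed as 0.1. By RPKM, RPL36AL alone lies above its partner, an order that turns to 30.4% of RPL36A by RPKM times exon length, and RPL3L and RPL10L are at the floor.

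The 3 readthrough genes share exons with canonical members, and their values cannot be told apart from those of the shared exons. RPS10-NUDT3 had 518 RPKM in library 1 and 505 RPKM in library 2, RPL17-C18orf32 had 372 and 373 RPKM, and RPL36A-HNRNPH2 had 249 RPKM in both libraries. Each stood above the member it overlaps, whose mean was 299.9 RPKM for RPS10, 280 RPKM for RPL17 and 45.5 RPKM for RPL36A. RPS19BP1 had 8.21 RPKM in library 1 and 7.89 RPKM in library 2.

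Pseudogenes of the members took up a large part of the table, and copies closer in sequence to the parent had the higher median levels. The first 120 coding bases of RPL21, which encodes a protein of the large subunit and has more named pseudogenes than any other canonical gene, are shown with the matching bases of 4 of its pseudogenes, from GRCh37. Capitals mark bases that differ from RPL21, the identity is over the whole coding sequence, and the coordinates are those of the gene.

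RPL21, chr13:27825499-27830828, + strand: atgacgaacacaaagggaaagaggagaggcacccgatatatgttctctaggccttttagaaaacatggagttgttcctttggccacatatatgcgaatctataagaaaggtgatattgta

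RPL21P119, chr16:9250259-9250738, - strand: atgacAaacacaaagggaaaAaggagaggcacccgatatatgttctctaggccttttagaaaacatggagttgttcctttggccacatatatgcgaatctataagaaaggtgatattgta

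RPL21P19, chr1:204315904-204316386, - strand: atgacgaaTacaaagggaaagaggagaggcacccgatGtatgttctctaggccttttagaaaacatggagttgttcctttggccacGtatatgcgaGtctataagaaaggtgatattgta

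RPL21P116, chr15:79155589-79156071, - strand: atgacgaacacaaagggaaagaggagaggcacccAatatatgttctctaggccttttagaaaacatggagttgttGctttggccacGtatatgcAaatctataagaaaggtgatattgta

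RPL21P68, chr6:25261467-25261959, + strand: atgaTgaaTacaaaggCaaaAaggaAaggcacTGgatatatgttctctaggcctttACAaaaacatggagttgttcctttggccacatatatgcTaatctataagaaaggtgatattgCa

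RPL21 itself had 118 RPKM in library 1 and 117 RPKM in library 2. RPL21P119, with 2 differences in the stretch shown and 99.4% identity, had 599 RPKM in library 1 and 596 RPKM in library 2. RPL21P19, with 4 differences and 97.9% identity, had 133 and 131 RPKM. RPL21P116 also has 4 differences in the stretch shown but 95.8% identity in all, and it had 0.989 RPKM in library 1 and 0.657 RPKM in library 2. RPL21P68, with 12 differences and 93.5% identity, was listed at 0.1 in each library. The 4 copies were chosen after their values were seen, and other copies of RPL21 do not keep this order. All 5 full copies of at least 99% identity lay above RPL21, at 364 to 858 RPKM, but between 97 and 99% the 12 full copies ran from 3.08 to 272 RPKM and 5 of them lay above it. RPL21P11, at 98.3% identity, had 51.8 RPKM, and RPL21P125, at 97.5%, had 3.08 RPKM.

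By symbol, the table held 1587 named pseudogenes of members, of which 1567 are annotated as processed. Every canonical gene had at least 1, with a median of 13 and a maximum of 133 for RPL21. Of the 1587, 382 were detected, 112 of them at 100 RPKM or more, and 1104 were listed at 0.1 in each library. The summed RPKM of canonical genes was 19480 in library 1 and 19478 in library 2, against 60512 and 60853 for the detected named pseudogenes. All 1587 together held 52.1% of the RPKM of all pseudogenes in the table in each library. The 10 highest were RPL41P1 at a mean of 3182 RPKM, RPL18AP3 at 1556 RPKM, RPL13AP5 at 1534 RPKM, RPS28P7 at 1511 RPKM, RPLP0P9 at 1403 RPKM, RPS2P5 at 1372 RPKM, RPL23AP42 at 1302 RPKM, RPL3P4 at 1238 RPKM, and RPL9P8 and RPL9P9 at 1188 RPKM each. Each of the 10 stood above the highest canonical gene by RPKM, which divides by length. RPL41P1 spans only 81 bases. RPLP0P9 and RPL3P4 cover 31.0% and 34.7% of the parent coding sequence, so they are not among the copies ordered by identity below.

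RPL9P8 and RPL9P9 have the same sequence over 673 bases and the same value, 1177 RPKM each in library 1. Reads from identical sequences cannot be assigned to a locus by sequence, so the equal values do not show whether both loci are transcribed.

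Identity to the parent ordered the pseudogenes. Among those that cover at least 90% of the parent coding sequence, all 37 of 99% identity or more were detected, with a median of 606 RPKM. All 69 between 97 and 99% were detected as well, at a median of 134 RPKM. Between 95 and 97%, 76 of 97 (78.4%) were detected, at a median of 24.1 RPKM, and between 90 and 95%, 143 of 408 (35.05%), with the median at the floor. Under 90%, 27 of 727 (3.71%) were detected. The 106 copies of at least 97% held 76.9% of the RPKM on the named pseudogenes.

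The order had exceptions on both sides. RPL41P5 matches the coding sequence of RPL41 fully and had 5.16 RPKM in library 1 and 2.04 RPKM in library 2, the lowest mean of the copies of 99% or more. RPL41P5 spans 78 bases, so few reads stand behind these values, which also differed between the libraries. RPL15P5, at 89.5% identity, had a mean of 46.4 RPKM, the highest below 90%. For the 382 detected pseudogenes, RPKM was set against the share of a pseudogene's 50-base words that also occur in the parent coding sequence. Spearman's rho was 0.79, given as a description only. The word share comes from sequence alone. Pseudogenes of the same parent can hold the same sequence, as RPL9P8 and RPL9P9 do, so they are not independent. How much of the signal at each pseudogene came from reads of the parent mRNA was not tested, since the files hold no reads.

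**Figure D3:**
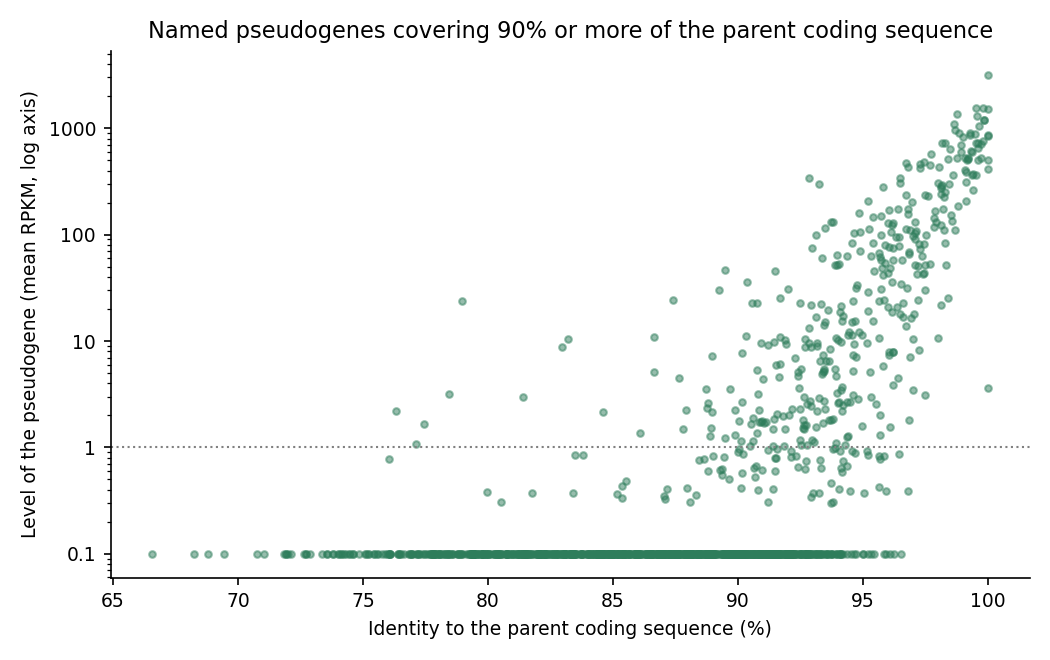
Mean RPKM of the libraries (log axis) against identity to the parent coding sequence (%) for named pseudogenes covering at least 90% of it; each point is 1 pseudogene, and the dotted line marks 1 RPKM. All 106 pseudogenes of 97% identity or more lie above the line, and 27 of the 727 under 90% were detected in both libraries.

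For 18 canonical genes at least 1 copy of 99% identity or more covers the coding sequence, 37 copies in all, of which 35 had a higher RPKM than their parent. The exceptions were copies of RPL41, which had a mean of 786 RPKM, against 409 RPKM for RPL41P2 and 3.60 RPKM for RPL41P5. The highest such copy of each parent was above it in all 18, which the choice of the highest favours. RPL36A had 45.5 and 45.4 RPKM, against 854 RPKM in library 1 and 828 RPKM in library 2 for RPL36AP37, whose sequence matches the coding sequence of RPL36A fully, and the copy was 18.5-fold higher by mean. RPS28 had 114 and 113 RPKM, against 1517 and 1505 RPKM for RPS28P7. RPL9 had 90.2 and 92.3 RPKM, against 1177 and 1199 RPKM for RPL9P8. The smallest excess of the copy was 2.47-fold, for RPS3A with 356 and 360.2 RPKM, against 885 and 884 RPKM for RPS3AP6. The median excess of the highest copy over the 18 pairs was 4.21-fold.

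Length stands between the members of each pair. The processed copies are little longer than the coding sequence, while the annotated exons of the parent genes are several times longer. RPKM multiplied by annotated exon length gives an estimate of reads, which summed to 1.15 times the depth of each library and so is not exact. By this estimate the copy over its parent ran from 0.237 to 1.77 with a median of 0.826, and 14 of the 18 pairs lay within 2-fold. On that measure 35.6% of the reads on members and their named pseudogenes together lay on the pseudogenes, against 75.6% of summed RPKM.

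**Figure D4:**
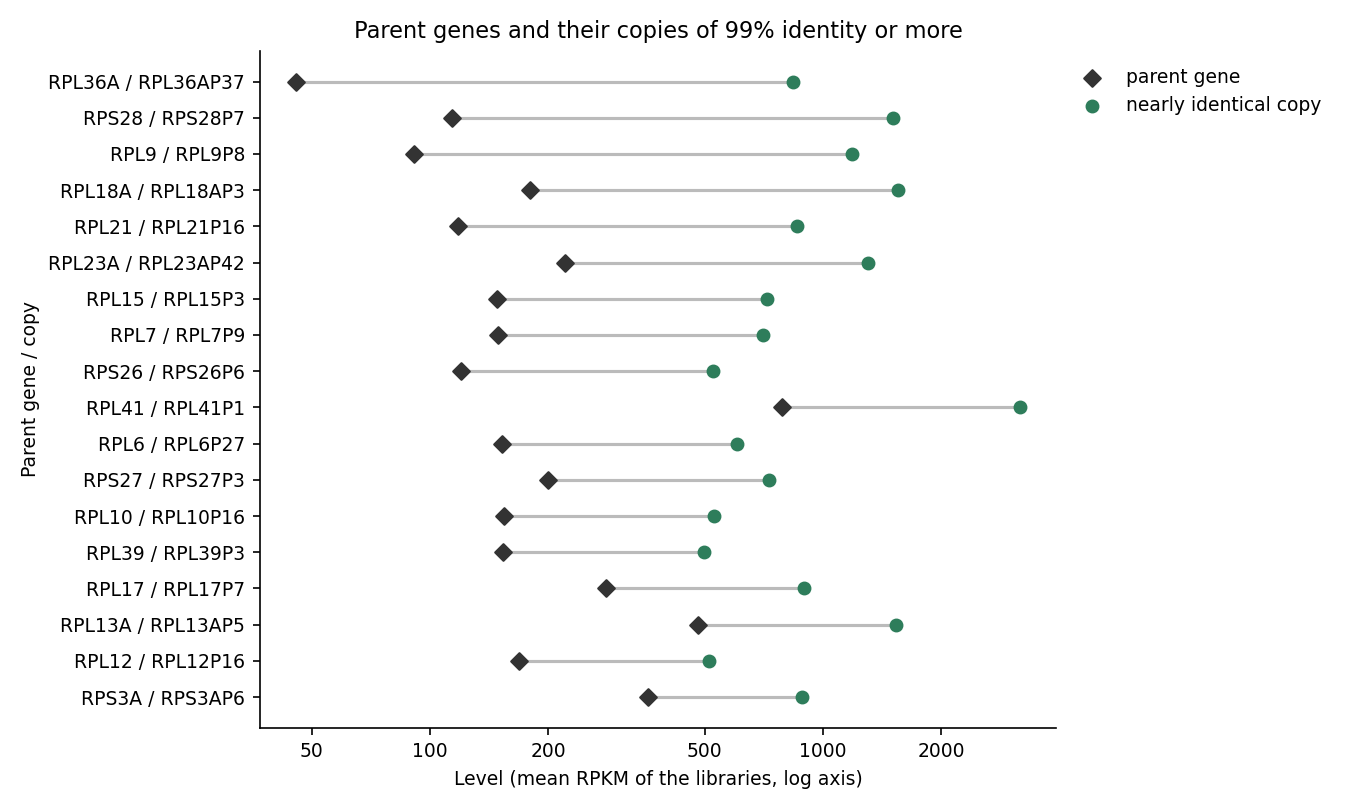
Mean RPKM of the libraries (log axis) of 18 parent genes (black diamonds) and their highest copy of at least 99% identity to the coding sequence (green circles), ordered by the ratio of copy to parent. Every copy lies right of its parent, by 2.47-fold for RPS3A and RPS3AP6 up to 18.5-fold for RPL36A and RPL36AP37.

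Summed over the detected named copies, the RPKM of the pseudogenes was above that of the parent for 42 of the 77 canonical genes, and for 38 a single copy was. RPL21 had 118 RPKM in library 1 and 117 RPKM in library 2, against sums of 4695 and 4727 RPKM over its 29 detected copies, a 40.05-fold excess of the copies. RPL9 was next, at a 38.0-fold excess of its copies, then RPL36A at 21.6-fold, RPS26 at 19.5-fold, RPS28 at 16.5-fold, RPS27 at 11.8-fold and RPL7 at 10.2-fold. RPL17, RPL23A and RPL22 completed the 10 highest, at 9.83-fold, 9.40-fold and 9.01-fold. No named copy was detected for RPS9, RPL28, RPLP1, RPLP2, RPS16 and RPS25, whose means ran from 108 RPKM for RPL28 to 413 RPKM for RPLP1.

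The share of a member's coding sequence that its own pseudogenes repeat, counted as 50-base words found in at least 1 of them, had a median of 39.6%. It was 100% for 7 genes, RPL21, RPL36A, RPL39, RPL41, RPS26, RPS27 and RPS28, and under 10% for 24. Over the 77 genes it was almost unrelated to level, with a Spearman's rho of -0.09. The 24 genes with little repeated sequence had a median of 199 RPKM. They ran from RPL27A, at 73.3 RPKM in library 1 and 73.5 RPKM in library 2, to RPL8, at 525 and 528 RPKM, a 7.18-fold span. Within them the 14 large-subunit genes had a median of 164 RPKM. The 10 small-subunit genes had one of 205 RPKM, a large over small ratio of 0.800. How far the levels of these 24 genes depend on the assignment of shared reads was not tested. Relative to the parent, the summed RPKM of their detected copies ran from 0 for RPLP1 to 0.597 for RPL37A.

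Annotated length moved with the level more than repeated sequence did. Canonical genes have coding sequences of 75 to 1281 bases (median 456), while their annotated exons, joined over all transcripts, cover 639 to 9840 bases (median 3228). The ratio of exon length to coding length ran from 1.61 for RPS12 to 58.6 for RPS29, and Spearman's rho between that ratio and RPKM was -0.69 over the 77 genes and -0.80 over the 24 with little repeated sequence. The 25 genes of shortest exon length, up to 2388 bases, had a median of 299.9 RPKM, and the 25 of longest exon length, from 3988 bases, had 144 RPKM. RPKM contains the length in its denominator, so part of this relation can be set by the unit, and its part was not tested because the length that the authors used for genes with several exons is not given in the sources used here.

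**Figure D5:**
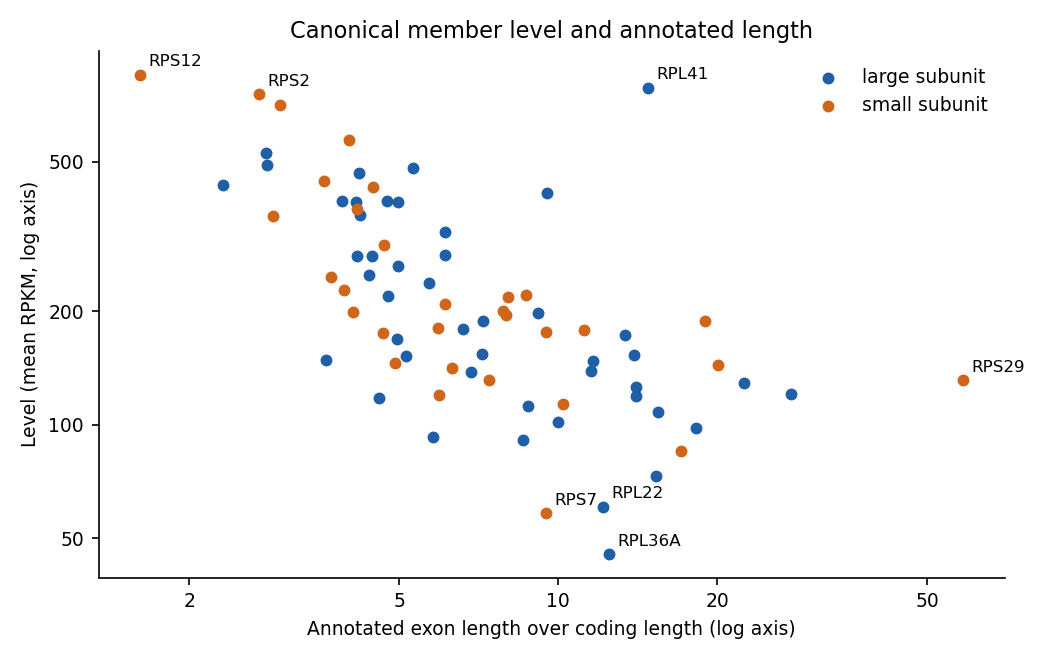
Mean RPKM of the libraries (log axis) against annotated exon length divided by coding length (log axis) for the 77 canonical genes, large subunit in blue and small subunit in orange. Levels are lower toward the right, from RPS12 at a ratio of 1.61 and 850 RPKM to RPS29 at 58.6 and 131 RPKM, with RPL41 above the band at 786 RPKM.

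Divided by coding length instead, the order of the genes was largely different, with a Spearman's rho of 0.393 against the RPKM order. RPL41 came first, RPS29 moved to place 2 from place 59, and RPLP1 came to place 3. RPS12, first by RPKM, came to place 41, and the lowest gene was RPL24 in place of RPL36A, which came to place 73. The rank of a single member therefore rests on the length used.

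Several members are hosts of small nucleolar RNAs, guides for the modification of ribosomal RNA that are cut from introns. Of the 77 canonical genes, 29 contain 60 annotated small nucleolar RNA genes between their ends. The hosts had a median of 220.1 RPKM and the 48 other canonical genes one of 178 RPKM, and the groups overlapped. Hosts ran from 58.3 RPKM for RPS7 to 850 RPKM for RPS12. The others ran from 45.5 RPKM for RPL36A to 786 RPKM for RPL41. The canonical genes lie on 21 chromosomes, with 12 on chromosome 19 and 4 on the X chromosome. Shares over all protein-coding genes were not computed for hosts or chromosomes, so whether these counts are unusual was not tested.

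Other genes of translation were set beside the members. All 76 measured mitochondrial ribosomal protein genes, which serve the ribosome inside mitochondria, were detected, none reached 100 RPKM, and their median was 11.6 RPKM. They ran from MRPS34 at 53.9 RPKM, MRPL12 at 52.0 RPKM, MRPS26 at 47.3 RPKM and MRPL51 at 33.0 RPKM down to MRPL48 at 2.31 RPKM, MRPS18C at 2.17 RPKM and MRPL46 at 1.83 RPKM, so even the highest lay below all canonical cytosolic genes but RPL36A. The 17 translation genes listed as TOP mRNAs were all detected, 9 of them at 100 RPKM or more, with a median of 133 RPKM. EEF1A1, the elongation factor that delivers tRNA, had 1582 RPKM, EEF2, the translocation factor, 1018 RPKM, EEF1G 515 RPKM and TPT1 510.3 RPKM, while EEF1D with 31.7 RPKM, EIF3H with 30.2 RPKM and EIF3F with 21.98 RPKM were lowest.

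The 29 ribosome assembly genes were all detected at a median of 11.8 RPKM. NPM1, the nucleolar chaperone nucleophosmin, was the only one at 100 RPKM or more, at 126 RPKM, followed by nucleolin (NCL) at 96.5 RPKM, the rRNA methyltransferase fibrillarin (FBL) at 67.7 RPKM and the subunit joining inhibitor EIF6 at 42.0 RPKM. GAR1 at 4.92 RPKM, POLR1B at 3.28 RPKM and RIOK2 at 3.07 RPKM were lowest. All 14 listed regulators were detected below 100 RPKM, with a median of 9.63 RPKM. The translational repressors EIF4EBP1 and EIF4EBP2 had 40.4 and 37.3 RPKM, LARP1, which binds TOP mRNAs, had 33.4 RPKM, and the transcription factor MYCN had 28.1 RPKM. GABPA with 5.14 RPKM, the S6 kinase gene RPS6KB1 with 3.69 RPKM and MYC with 3.30 RPKM were lowest.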

How the data were processed

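Poly(A) RNA libraries of 1 group (2 libraries) were used as deposited. The table holds RPKM made by the authors, per the file headers. STAR 2.3.0e, Cufflinks 2.2.0 and FastQC 0.10.1 are named by the submitters' processing notes, and the series description names Sailfish and hg19. The tool that gave the RPKM is not given in the sources used here, nor are annotation release and gene lengths. Whether the libraries came from separate cultures is not stated, so their spread may be technical.

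Identifiers without version were matched to GENCODE release 44 on GRCh37 (54428 of 57158), the source of symbols, biotypes, exon and coding lengths and coordinates. Among single-exon genes under 500 reads, 81.3% of values in each library were whole reads within 0.02, which gave the depths. Genes with several exons gave none, so reads of members are RPKM times exon length, an estimate, and no count model was used. Reads estimated with exon lengths summed to 1.15 times the depth in each library. That ratio covers all genes together, and the error of the estimate for a single gene is not known and can be larger. Intervals were not computed, and molecules were not tagged, so counting error is a lower bound. Pseudogenes carry the parent symbol, P and digits, and identity came from blastn 2.17.0 against the coding sequence of the parent's canonical transcript. Summed RPKM of pseudogenes, in all and per parent, covers detected copies only, while floor values entered shares of RPKM as 0.1. Start sequences and promoters are RefSeq, GRCh38.p14.

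The members and lists were chosen with earlier results of these data known. Named genes are all paralogs with partners, the 10 highest and 10 lowest canonical genes, the functional groups, members past 1.1-fold between libraries, the 10 with most pseudogene signal relative to their own, the 10 highest pseudogenes, other symbols that the rule caught, and up to 4 highest and 3 lowest of each pathway list. A few of these are not reported here, though counts and medians include them. Other genes were chosen after their values were seen, among them those whose sequences are printed. With 1 group no comparison was tested and no p-value is given. Python 3.11.15 and pandas 2.3.3 were used, and the variance measure of agreement between the libraries was tested on simulated counts.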

Additional observations from a re-analysis of the deposited data

How the results depend on the processing

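At a limit of 100 RPKM 69 canonical genes passed in place of 77, and at 5 RPKM 5 paralogs in place of 6. With reads on named pseudogenes added to the parent, the canonical median was 296 RPKM, the highest stood 28.3-fold over the lowest, and the large over small subunit ratio was 1.41. Divided by coding length these were 1459, 21.6 and 0.975. Divided by the canonical transcript length, an alternative chosen after seeing the data, they were 736, 39.8 and 0.780, and the pseudogene share of reads with that length was 60.4%. By summed RPKM that share was 75.6%. By RPKM times exon length, also chosen after seeing the data, RPL36AL had 30.4% of RPL36A in place of 178%, which turns the order. At a limit of 100 RPKM, 0 paralogs passed in place of 6. At 5 RPKM or more in both libraries, 0 members differed by 1.1-fold in place of RPL39L alone. Leaving out each library in turn gave medians of 188 to 189.9 RPKM, highest over lowest of 18.6 to 18.8, a large over small ratio of 0.875 to 0.892, a pseudogene share of 35.6 to 35.7%, and 77 canonical genes and 6 paralogs detected. Values under 0.5 RPKM cannot be ranked, and unknown gene lengths limit every comparison of levels between genes with several exons. No paired analysis was possible because the series holds 1 group.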
